A study of Danio rerio with 16 samples.

Results

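The 203 peaks described here are regions of open chromatin that lie in an untranslated region (UTR) or at the annotated end of a transcript (TTS, transcription termination site). They were chosen by the deposited annotation alone, among the 9466 peaks that the study listed as differing in accessibility between haemogenic endothelium (HE) and aortic roof endothelium (ARE). Of the 203, 53 carried the annotation 5' UTR, 49 the annotation 3' UTR and 101 the annotation TTS. They lay on all 25 chromosomes and belonged to 202 different annotated transcripts.

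Accessibility was measured by ATAC-seq, in which the transposase Tn5 cuts and tags open DNA, in cells sorted from pooled wild-type zebrafish embryos at 28 to 30 hpf. All embryos carried TgBAC(runx1P2:Citrine), in which a BAC with the proximal runx1 promoter drives Citrine, and Tg(kdrl:mCherry), which marks endothelium. HE was sorted as DP-R1hi (mCherry+ Citrine high) and ARE as DP-R1lo (mCherry+ Citrine low), each with 3 libraries of 2000 to 3000 cells, of which the authors used 2 per population. The ARE carries Citrine as stable protein rather than by its own transcription, as do primitive erythrocytes, so that the gate separates cells by Citrine protein. The 3 remaining populations (DP-R1med, SP-kdrl and DN) and the genomic DNA control were not analysed here, since the 2 lists give values for DP-R1hi and DP-R1lo only.

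HE is the endothelium of the floor of the dorsal aorta from which blood stem and progenitor cells arise, under the control of the transcription factor Runx1. Open chromatin at promoters is shared by many cell types, whereas distal elements tend to be open in a more restricted set of cells. A UTR or a transcript end can hold either kind of element. A 5' UTR in the first exon adjoins the promoter, while a 3' UTR or a transcript end can lie far from any start site, or next to the promoter of a neighbouring gene.

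Values are the authors' mean log2 concentrations, that is the log2 of the mean normalised read count in a peak, 1 for each population. A difference of 1 on this scale is a 2-fold difference in reads. Since each population is given as 1 mean over 2 libraries, no spread between libraries can be given, no test across replicates was made here, the authors' own test statistics were not used, and library depth is unknown. A positive log2 difference means more open in DP-R1hi and a negative one more open in DP-R1lo. All 203 peaks differ by construction, since the lists hold only peaks that the authors called as differing, past an absolute log2 fold change of 0.7. What is described here is thus how the difference is distributed and not that there is one. In sorted cell pools, more cells with an open region and a more open region in each cell cannot be told apart.

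The peaks divided almost evenly between the populations. DP-R1hi was more open at 102 of the 203 (50.2%) and DP-R1lo at 101. Over all listed peaks, 40.8% were more open in DP-R1hi and 59.2% in DP-R1lo. The share more open in DP-R1hi was 47.2% for 5' UTR peaks (25 of 53), 49.0% for 3' UTR peaks (24 of 49) and 52.5% for TTS peaks (53 of 101). The 95% Wilson intervals of these shares, which cover counting error only and take peaks as independent, were 34.4 to 60.3%, 35.6 to 62.5% and 42.8 to 61.9%. The share over all listed peaks lies inside the intervals of both UTR classes and below that of TTS peaks. The share at promoters was 48.0%, and it was 35.7% in coding exons, 40.0% in introns and 40.6% between genes.

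The 3 classes differed in the level of the less open population. At the 53 5' UTR peaks, both populations had a log2 concentration of at least 5 in 32 (60.4%), close to the 61.9% of promoter peaks. The same held for 4 of 49 3' UTR peaks (8.16%) and 23 of 101 TTS peaks (22.8%), beside 24.9% of all listed peaks. Each population had a lowest value that recurred in the lists, −0.14 in DP-R1hi and −0.27 in DP-R1lo. The less open population stood at this lowest value in 2 of 53 5' UTR peaks (3.77%), 18 of 49 3' UTR peaks (36.7%) and 24 of 101 TTS peaks (23.8%). The share was 29.3% over all listed peaks and 40.4% at coding exon peaks. The log2 difference of the 44 members at the lowest value depends on that value and is no measured ratio. The same holds for any other listed peak with a population at its lowest value. Among the members, the lowest value was reached in 15 of the 102 peaks more open in DP-R1hi (14.7%, beside 18.8% over all listed peaks of that direction) and in 29 of the 101 more open in DP-R1lo (28.7%, beside 36.6%).

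**Figure D1:**
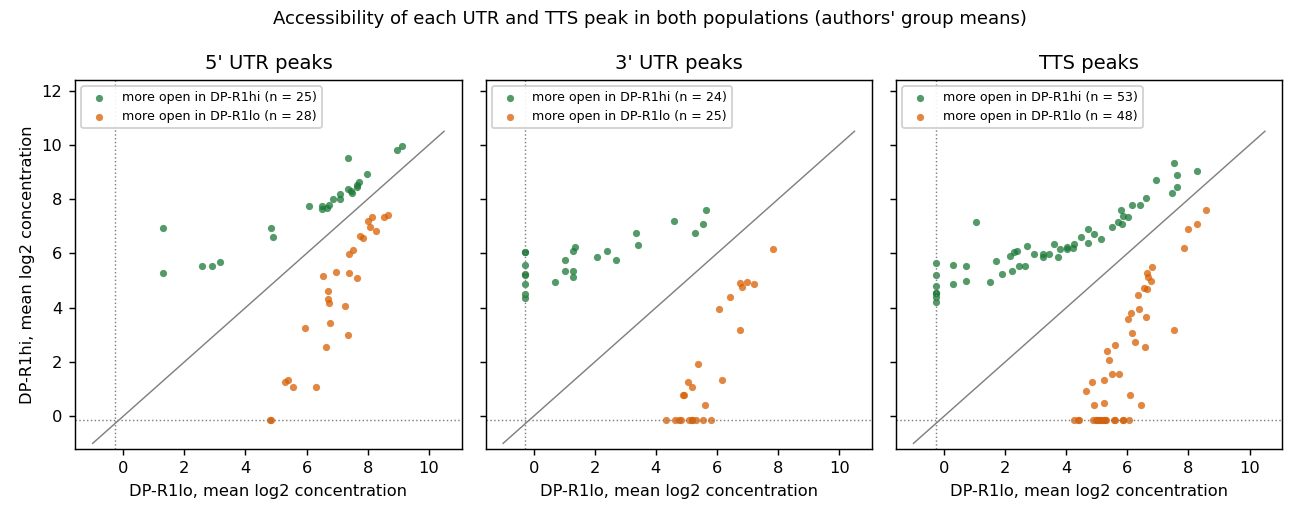
Mean log2 concentration in DP-R1hi (vertical) against DP-R1lo (horizontal) for each 5' UTR, 3' UTR and TTS peak, 1 point per peak, with the line of equal values in solid grey and the lowest listed value of each population dotted. Both populations reach at least 5 in 32 of 53 5' UTR peaks, although 23 of the 53 have an absolute log2 difference of at least 2. On a dotted line lie 2 of 53 5' UTR peaks, 18 of 49 3' UTR peaks and 24 of 101 TTS peaks.

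By their medians, 5' UTR peaks were the strongest and the least different of the 3 classes. Their median log2 concentration in the more open population was 7.62, and the median absolute log2 difference was 1.45. The corresponding values were 5.61 and 4.24 for 3' UTR peaks, and 6.04 and 3.09 for TTS peaks. Level and difference are not independent in the lists, since a weak peak must differ more than a strong one to be called as differing. The smallest absolute difference was 0.75 among 5' UTR peaks and 1.46 among 3' UTR peaks. How much of the contrast between classes comes from this selection was not tested. Peak width differed as well, and the median peak was 845 bp wide at 5' UTRs, 430 bp at 3' UTRs and 478 bp at TTSs. Per kb of peak, the median log2 level in the more open population was 7.74 at 5' UTRs, 6.91 at 3' UTRs and 7.07 at TTSs, beside 7.82 at promoters and 7.18 over all listed peaks.

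Position separated the 5' UTR peaks further. In all, 44 of the 53 lay in exon 1, with centres 101 to 326 bp downstream of the annotated start, and 42 of these 44 peaks reached across the start site itself. In the deposited annotation the promoter class ends about 100 bp downstream of the start (502 of 506 promoter peaks have their centre between −1000 and 100 bp), so that the exon 1 peaks are the immediate continuation of the promoter class. The median absolute log2 difference was 1.27 at exon 1 peaks and 1.59 at promoter peaks. The 9 peaks in later 5' UTR exons, 304 to 37911 bp from the start, had a median of 3.34, and both populations reached a log2 concentration of 5 in 1 of them (11.1%).

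The size of the difference also depended on its direction. Exon 1 5' UTR peaks more open in DP-R1hi had a median log2 difference of 1.02 (21 peaks), and those more open in DP-R1lo a median absolute difference of 2.08 (23 peaks). An absolute difference of at least 2 was found in 4 of the 21 (19%) and 12 of the 23 (52.2%). At promoters these shares were 18.5% for DP-R1hi and 55.1% for DP-R1lo, and over all listed peaks 66.3% and 82.7%. TTS peaks had the same order of medians, 2.52 in DP-R1hi and 3.99 in DP-R1lo, and so did promoters (1.19 and 2.15) and all listed peaks (2.70 and 3.90). The 3' UTR peaks had similar medians in both directions, 4.29 and 4.12, beside 3.29 and 4.32 in coding exons. Of the 3' UTR and TTS peaks more open in DP-R1lo, 10 of 25 (40.0%) and 17 of 48 (35.4%) had DP-R1hi at the lowest value. In the opposite direction, DP-R1lo was at the lowest value in 8 of 24 (33.3%) and 7 of 53 (13.2%).

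**Figure D2:**
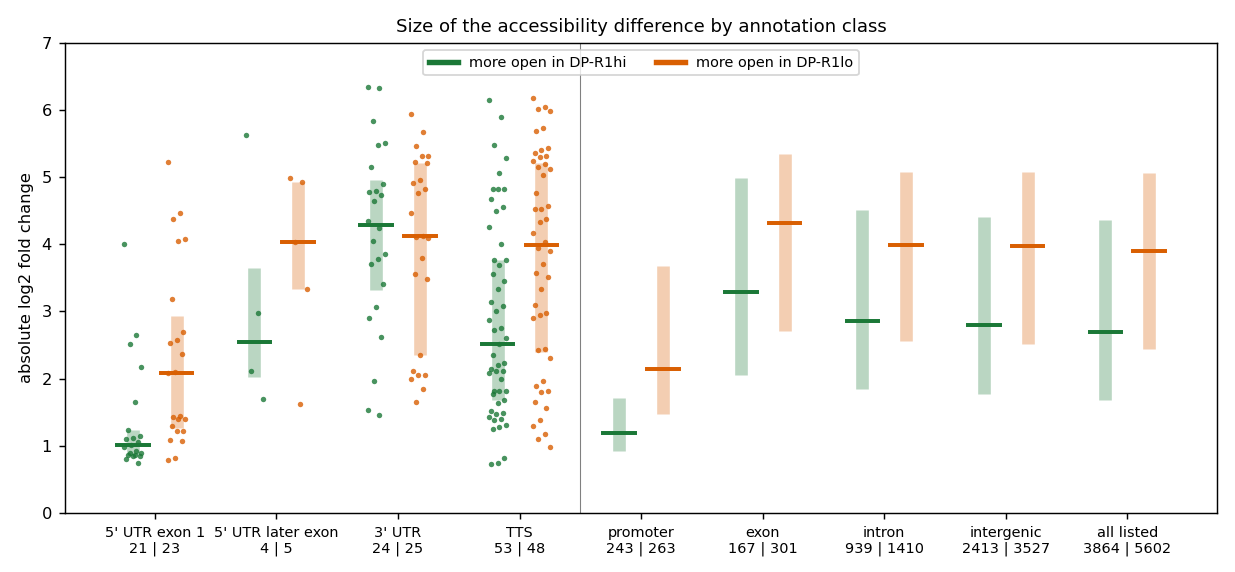
Absolute log2 difference between DP-R1hi and DP-R1lo by annotation class and direction, with medians as horizontal lines, the interquartile range as shaded bars and the single members as points, and with the number of peaks (DP-R1hi | DP-R1lo) under each class. Exon 1 5' UTR peaks lie in the range of promoter peaks (medians 1.02 and 2.08 beside 1.19 and 2.15). The 3' UTR peaks lie higher than these in both directions (4.29 and 4.12), as do coding exon peaks (3.29 and 4.32).

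Among the 5' UTR peaks more open in DP-R1hi, the largest difference was at ttll7, which encodes a tubulin polyglutamylase. Its peak in exon 2 of 21 (chr11:8105204-8105569, GRCz10, the build of all coordinates given) had a log2 concentration of 6.92 in DP-R1hi and 1.29 in DP-R1lo. septin4a, a septin of the cytoskeleton, followed with 5.29 and 1.29, and b4galt4, a galactosyltransferase, with 5.54 and 2.57. At ttll7 and at b4galt4, the only other listed peak of the gene was more open in DP-R1lo. The strongest peaks of this direction were open in both populations. iglon5, a cell adhesion gene of the immunoglobulin superfamily, had 9.96 in DP-R1hi and 9.11 in DP-R1lo. ndrg2, whose peak was the widest of the 5' UTR class at 1825 bp, had 9.82 and 8.97. rnf150a, a RING finger gene, had 9.51 and 7.34 and was thus the exception, both strong and over 2 units apart. The dicer1 peak in 5' UTR exon 2 (6.60 in DP-R1hi and 4.90 in DP-R1lo) belongs to the endonuclease that releases miRNAs from their hairpins, and the TTS peak of ago3a, an Argonaute gene, had 6.04 and 2.28; both genes were picked after their values had been seen.

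At 5' UTRs more open in DP-R1lo, the leading peak was that of fzd2, a Wnt receptor gene with a single exon (chr3:31489742-31490727), with 1.09 in DP-R1hi and 6.31 in DP-R1lo. The next, ankrd6b and bnc2, were in second exons, with DP-R1hi at its lowest value and DP-R1lo at 4.85 and 4.79. ankrd6b is the zebrafish counterpart of diversin, which acts between the branches of Wnt signalling, and bnc2 encodes a zinc finger protein. The latter had 7 further listed peaks and all were more open in DP-R1lo. Several developmental regulators had an exon 1 peak that was nearly closed in DP-R1hi, and these were named after their values had been seen. pou5f3, a POU factor of the early embryo, had 1.09 in DP-R1hi and 5.56 in DP-R1lo. The homeobox gene en1b had 2.55 and 6.63, and the growth factor gene fgf6a 1.35 and 5.40. The strongest peaks of this direction, at lamc1 (7.43 in DP-R1hi and 8.65 in DP-R1lo), ptpra (7.33 and 8.55) and caska (6.81 and 8.26), were again well open in both. lamc1 encodes a laminin chain of the vascular basement membrane, ptpra a receptor phosphatase and caska a scaffold kinase.

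The 3' UTR peak with the largest difference was that of cd83 (chr16:38447079-38447543, in exon 5 of 5), with 6.07 in DP-R1hi and the lowest value in DP-R1lo. cd83 encodes an immunoglobulin-type surface protein of activated immune cells and was the only member of the list of HE and haematopoietic genes. Of the 44 listed peaks nearest to or annotated to genes of that list, 34 were more open in DP-R1hi, beside 40.8% of all listed peaks. This list and the gene lists named below were chosen with earlier results of these data known. It holds genes, such as dnmt3bb.1 and angpt1, that the study picked for higher RNA in DP-R1hi than in DP-R1lo. The count is thus no independent evidence. The arl13b peak (6.05, cilia GTPase) and the cbl peak (5.56, ubiquitin ligase of receptor tyrosine kinases) were likewise at the lowest value in DP-R1lo. The arl13b peak lies nearest to the start of nsun3, 3215 bp away. The strongest 3' UTR peaks of this direction, at shq1 (7.59 in DP-R1hi and 5.63 in DP-R1lo), vamp1a (7.21 and 4.59) and slc25a55a (7.07 and 5.54), had smaller differences. These genes act in small nucleolar RNA assembly, vesicle fusion and mitochondrial transport. podxl, a sialomucin of podocytes, endothelium and blood progenitors, had 5.34 and 1.29 at its 3' UTR and was picked after its values had been seen.

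In the other direction, the 3' UTR peaks of cdin1, atp5mc3b and atf7a had DP-R1hi at its lowest value and DP-R1lo at 5.80, 5.53 and 5.32. The human counterpart of cdin1 is mutated in a dyserythropoietic anaemia, atp5mc3b encodes an ATP synthase subunit and atf7a a transcription factor of the ATF family. The atp5mc3b peak lies 2099 bp from the start of chrna1, a subunit of the muscle acetylcholine receptor. The strongest was flt1, a VEGF receptor gene, in exon 11 of 11 of the annotated transcript (chr24:21635945-21636772), with 6.16 in DP-R1hi and 7.82 in DP-R1lo. ppp1r13ba, a gene of the ASPP family, had 4.93 and 6.99.

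Among TTS peaks, the largest differences in DP-R1hi were at blf, nrxn1b and he1.3. blf, a zinc finger gene of embryonic blood, had 7.17 in DP-R1hi and 1.03 in DP-R1lo (chr22:9894129-9894961). nrxn1b, a neurexin gene, had 5.63 and he1.3, a hatching enzyme gene, 5.20, both with DP-R1lo at its lowest value. The nrxn1b peak lies nearest to the start of polh, 12261 bp away. he1.3 is 1 of several near-identical copies, among which reads may have been shared. The strongest TTS peaks of this direction were igfbp1b (9.33 in DP-R1hi and 7.51 in DP-R1lo), which was also the widest member at 2289 bp, eef1a1l1 (9.02 and 8.29) and cyp3a65 (8.90 and 7.62). The igfbp1b peak lies nearest to the start of znfl2a, 2131 bp away. The eef1a1l1 peak reaches across the start of its close copy eef1a1l2, and reads of the pair may have been shared. Its difference of 0.73 was the smallest among the members, just inside the threshold of 0.7, followed by rab11bb (8.23 and 7.48) and mapk10 (8.22 and 7.47).

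The TTS peaks that differed most in DP-R1lo were fzd7b, elovl1b and sox9b. fzd7b, a Wnt receptor gene, had the lowest value in DP-R1hi and 6.04 in DP-R1lo (chr6:9467564-9468036). elovl1b, a fatty acid elongase, had 0.40 and 6.44. sox9b, a transcription factor of neural crest and cartilage, had the lowest value and 5.87. Strong peaks in both populations were found at prrg2 (7.60 in DP-R1hi and 8.58 in DP-R1lo), cfp, which encodes the complement factor properdin (7.10 and 8.28), and sox7 (6.89 and 7.99).

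Endothelial genes were represented by 4 members, and all 4 were more open in DP-R1lo. Over all classes, the 49 genes of the endothelial and arterial list had 124 listed peaks, 104 of them more open in DP-R1lo. Of all listed peaks, 59.2% had that direction. The list was chosen with earlier results of these data known. It holds arterial genes, such as dll4 and hey2, whose RNA the study found depleted in DP-R1hi, so that these counts are no independent evidence. The TTS peak of etsrp, listed in the files as etv2, had 0.79 in DP-R1hi and 6.10 in DP-R1lo (chr16:42057597-42058463). etv2 encodes the ETS factor that specifies endothelium, and its intronic and promoter peaks within 10 kb had log2 differences of −2.45 and −1.71. By distance, however, the start of caspa, a caspase gene, is nearer to the TTS peak (3581 bp). tmem204, which encodes an endothelial membrane protein, had 2.98 and 7.35 at its 5' UTR, but its only other listed peak was more open in DP-R1hi. At flt1 and sox7, an endothelial SoxF factor, both populations were open, with differences of −1.66 and −1.10. Introns of flt1 within 10 kb held 2 further peaks with differences of −5.81 and −5.06, larger than at the 3' UTR peak. At the peak with −5.06, DP-R1hi was at its lowest value. These intron peaks lay 30139 and 36620 bp from the flt1 start, further than the 3' UTR peak at 27287 bp. The 3' UTR peak thus belongs to a shorter annotated transcript and does not mark the end of the gene. The promoter of sox7 had a difference of −1.14, close to that at its TTS.

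Further vascular receptors and regulators outside that list were looked up after the values had been seen. gpr182, a receptor of endothelial cells, had 0.40 in DP-R1hi and 4.92 in DP-R1lo at its TTS, and −4.22 at its promoter. The sphingosine 1-phosphate receptor gene s1pr5a had the lowest value and 4.33 at its 3' UTR, and the endothelin receptor gene ednraa 3.94 and 6.05. By distance, the ednraa peak lies nearest to the start of another gene, tmem184c, 20701 bp away. Both zebrafish mafb genes had a TTS peak more open in DP-R1lo, mafba with 1.56 and 5.50 and mafbb with the lowest value and 5.10. By contrast hhex, a homeobox gene of early endothelium and blood, was more open in DP-R1hi at its TTS (6.40 and 4.72) and at an intron peak nearby, with a difference of 0.83, while another listed peak of hhex was more open in DP-R1lo.

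Wnt pathway genes had 5 members, and all 5 were more open in DP-R1lo. Of the 91 listed peaks of this list, 70 were more open in DP-R1lo, beside 59.2% of all listed peaks. Receptors, a secretion factor and an antagonist were among them. The receptor genes fzd7b and fzd10 were at the lowest value in DP-R1hi and fzd2 was at 1.09, and the 3' UTR peak of fzd10 had 5.18 in DP-R1lo. wls, whose product carries Wnt ligands to the cell surface, had 4.08 in DP-R1hi and 7.26 in DP-R1lo at its 5' UTR. znrf3, a ubiquitin ligase that removes Wnt receptors, was open in both populations with 7.36 and 8.15. fzd2, fzd7b, fzd10 and wls had no other listed peak, whereas the 4 other peaks of znrf3 were divided, with 2 in each direction.

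Both Hox members were more open in DP-R1lo, hoxa4a with the lowest value in DP-R1hi and 5.27 in DP-R1lo, and hoxb5a with 3.95 and 6.39. Hox genes encode the transcription factors of the body axis. Of their 56 listed peaks, 55 were more open in DP-R1lo, beside 59.2% of all listed peaks. Within 10 kb of the hoxa4a peak there were 4 further listed peaks, and all were more open in DP-R1lo (differences of −0.97 to −4.70). At the peak with −4.70, DP-R1hi was at its lowest value. The single member of the BMP and TGF-beta list, the TTS peak of the BMP antagonist nog2, had 2.73 and 6.24. An exon peak of nog2 had a difference of −5.60, with DP-R1hi at its lowest value. On that list 63 of 87 listed peaks were more open in DP-R1lo, beside 59.2% of all listed peaks. The list does not hold every gene related to this pathway. Outside it, the TTS peaks of wfikkn1 (6.60 and 4.48) and of hnrnpub, nearest to lft1 (5.36 and 2.22), were more open in DP-R1hi. Both were picked after their values had been seen.

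Erythroid genes had 3 members, and all 3 were more open in DP-R1hi. In all, 28 of 30 listed peaks of this list had that direction, beside 40.8% of all listed peaks. Besides blf, the TTS of the embryonic beta globin gene hbbe3 had 7.61 in DP-R1hi and 5.79 in DP-R1lo, at a locus where reads may be shared with neighbouring globin copies. The third lay in the 3' UTR of rab3db, 7165 bp from the start of the erythropoietin receptor gene epor (chr3:14386848-14387277), with 6.77 and 3.36. The gene epor had 3 further listed peaks, which were more open in DP-R1hi as well. Primitive erythrocytes also hold Citrine, and the part of such cells in the DP-R1hi values was not tested. A peak in the 3' UTR of entpd4, 11037 bp from the start of slc25a37, the mitochondrial iron importer of developing red cells, had 6.75 and 5.29; it was picked after its values had been seen.

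Members from lists of other cell types were single peaks. Properdin (cfp, myeloid list), chrna1 (skeletal muscle) and sox9b (neural crest and mesenchyme) were more open in DP-R1lo, and scrt1a (neural), with 5.58 in DP-R1hi and 0.30 in DP-R1lo, in DP-R1hi. The only other listed peak of scrt1a was more open in DP-R1lo. The pronephros list had no member. Muscle and cartilage genes outside these lists had members in both directions, picked after their values had been seen. The TTS peaks of tnni1b (5.98 in DP-R1hi and 3.25 in DP-R1lo) and col2a1a (6.29 and 2.73) were more open in DP-R1hi. So was the tln1 peak nearest to tpm2, with 4.37 and DP-R1lo at its lowest value. The TTS peak of tnnt2d, with DP-R1hi at its lowest value and DP-R1lo at 4.89, had the opposite direction. By distance, the col2a1a peak lies nearest to the start of another gene, cry3a, 11141 bp away. Over all classes, DP-R1lo was the more open in 14 of 18 listed peaks of the neural list, 9 of 11 of the neural crest list and 3 of 3 of the muscle list. For all listed peaks this share was 59.2%. The part of cells of these types in the sorted populations was not tested here. In RNA-seq of the same gates, the paper found low levels of myod1, pdgfra and cdh17. From these it proposes that few myotome, sclerotome, neural crest or pronephros cells were present, mostly in SP-kdrl.

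Immediate early and p53-related members were found in both directions. Over all classes, DP-R1lo was the more open at 23 of 29 listed peaks of the immediate early and AP-1 list. It was so at 13 of 22 of the apoptosis and p53 list, near the 59.2% of all listed peaks. The etsrp peak nearest to caspa, described with the endothelial genes, is also a member of the apoptosis and p53 list. btg2, an antiproliferative gene, had 7.79 in DP-R1hi and 6.15 in DP-R1lo at its TTS, whereas the AP-1 gene junba had 1.27 and 4.85. rbm38, an RNA-binding protein induced by p53 in mammals, had 7.75 and 6.09 at its 5' UTR. An intron peak of rbm38 had a difference of 5.85, with DP-R1lo at its lowest value. The polo-like kinase gene plk2b had 3.66 and 6.61 at its TTS. Its exon peaks within 10 kb had differences of −6.32 and −4.34, both with DP-R1hi at its lowest value, and its promoter peak −0.90.

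**Figure D3:**
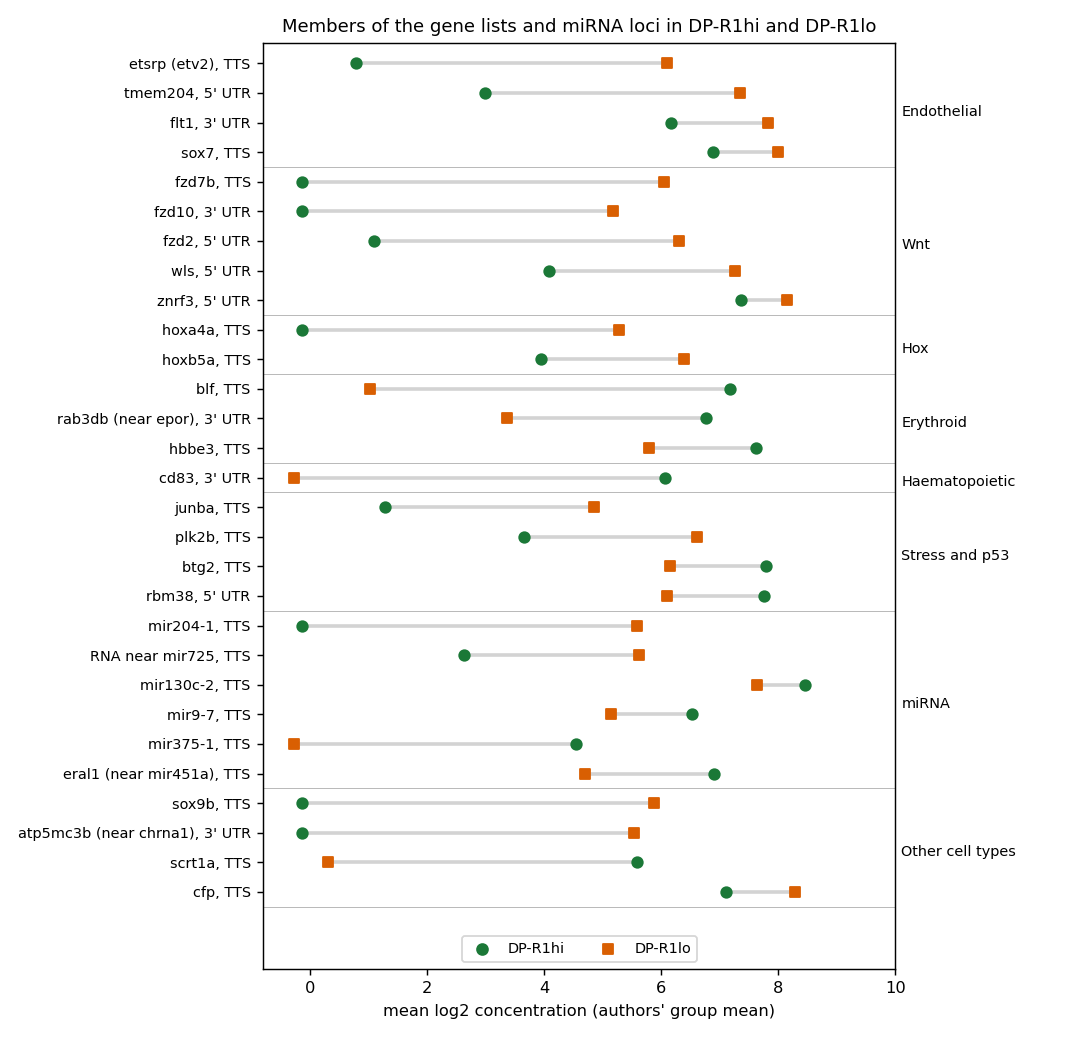
Mean log2 concentration of members of the gene lists and of miRNA loci in DP-R1hi (green circles) and DP-R1lo (orange squares), 1 line per peak, grouped by role and labelled with the annotated gene and class. All endothelial, Wnt and Hox peaks shown have the square to the right, and the 3 erythroid peaks have the circle to the right, while the stress and p53 genes and the miRNA loci are divided.

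Ends of noncoding transcripts formed a group of their own, since a miRNA hairpin is so short that 1 peak can cover its start as well as its end. The peaks at mir204-1 and mir9-7 reached across the start of the hairpin itself, and those at mir130c-2 and next to mir725 across the start of the neighbouring mir301b and mir725. At mir375-1 the peak centre lay 411 bp from the start and the peak did not reach it. In the peak of mir204-1, DP-R1hi was at its lowest value and DP-R1lo at 5.59. At the end of an RNA next to mir725, the values were 2.63 in DP-R1hi and 5.61 in DP-R1lo. The opposite direction was seen beside the mir375-1 hairpin (4.55 in DP-R1hi and the lowest value in DP-R1lo) and at mir9-7 (6.52 and 5.14). Of the 8 other listed peaks of mir9-7, 5 were more open in DP-R1hi and 3 in DP-R1lo. The clustered hairpins mir130c-2 and mir301b shared a strong peak with 8.46 in DP-R1hi and 7.64 in DP-R1lo, and the nearest other listed peak, 380 bp away, had the opposite direction with a difference of −1.49. mir204, mir375 and mir9 are known for roles in eye, pancreatic islet and neural progenitors, respectively.

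A further 3 peaks at the end of coding genes were nearest to a noncoding gene. The eral1 peak lies 1683 bp from the start of mir451a, the miRNA of red cell maturation, and had 6.90 in DP-R1hi and 4.70 in DP-R1lo. The promoter peak listed beside it, whose nearest start was not that of mir451a, had a difference of 1.75. The aifm3 peak, nearest to mir22b at 26936 bp, had 5.12 and 6.69, and the mapre1a peak, nearest to si:dkey-16n15.3, had 6.36 and 3.61. The noncoding RNA wu:fc47e11 had 7.38 in DP-R1hi and 5.86 in DP-R1lo at its end, and its 3 other listed peaks were more open in DP-R1hi too.

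The annotated gene was the nearest gene at all 53 5' UTR peaks, at 28 of 49 3' UTR peaks (57.1%) and at 71 of 101 TTS peaks (70.3%). For the remaining 51 peaks another start site was nearer, and for 23 of them it was within 5 kb. In 6 TTS peaks the peak reached across the start site of the nearest gene. The median distance to the nearest start was 170 bp for 5' UTR, 11037 bp for 3' UTR and 7088 bp for TTS peaks, beside 31017 bp for all listed peaks. The 3' UTR and TTS peaks nearest to another gene had a median absolute log2 difference of 3.56, and those nearest to their own gene 3.78.

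Listed peaks within 10 kb mostly had the same direction. Within 10 kb, 51 of the 203 members (25.1%) had another listed peak, beside 26.9% of all listed peaks. In 42 of these 51 (82.4%) all neighbours had the direction of the member, beside 79.2% over all listed peaks. Of the 3' UTR peaks with a neighbour, 11 of 11 shared its direction, as did 9 of 10 5' UTR and 22 of 30 TTS peaks. Within 50 kb, all neighbours had the direction of the member in 70 of 127 members (55.1%) and in 28 of 63 TTS peaks (44.4%), beside 59.1% over all listed peaks. Both naa15b members, in its 3' UTR and at its TTS, lay 39 bp apart and had 6.08 and 4.79 in DP-R1hi and 1.29 and the lowest value in DP-R1lo. No other annotated transcript had 2 members. The 5' UTR peak of dip2ba and the 3' UTR peak of its neighbour atf7a, 4331 bp apart, were both more open in DP-R1lo but to different degrees (7.19 and 8.01 at dip2ba).

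In 9 members, a listed peak within 10 kb had the opposite direction. The genes in the rest of this paragraph, apart from junba, were picked after their values had been seen. At the TTS of foxl2a, DP-R1hi was at its lowest value and DP-R1lo at 5.01. An intergenic peak of the same gene had a difference of 5.71, with DP-R1lo at its lowest value. The TTS peak of junba lay between an intergenic peak with a difference of −2.18 and an intron peak of prdx2, a peroxiredoxin of red cells, with a difference of 4.51. At the prdx2 peak DP-R1lo was at its lowest value. Paralogues were also found on both sides. The TTS peak of fgfr3 (4.41 in DP-R1hi and the lowest value in DP-R1lo) and that of fgfrl1b (6.72 and 4.90) were more open in DP-R1hi, and the 3' UTR peak of fgfr4 (the lowest value and 5.18) in DP-R1lo, where 5 further fgfr4 peaks had the same direction. The 2 other listed peaks of fgfr3, however, were more open in DP-R1lo, and the fgfrl1b peak lies nearest to another gene, nitr13, whose only other listed peak was more open in DP-R1lo. inka1b was more open in DP-R1hi at its own TTS (4.96 and 1.51), whereas the gnai2a peak nearest to inka1a was at the lowest value in DP-R1hi and at 5.16 in DP-R1lo. The 2 other listed peaks of inka1b were divided, 1 in each direction, and that within 10 kb had a difference of −2.25.

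**Figure D4:**
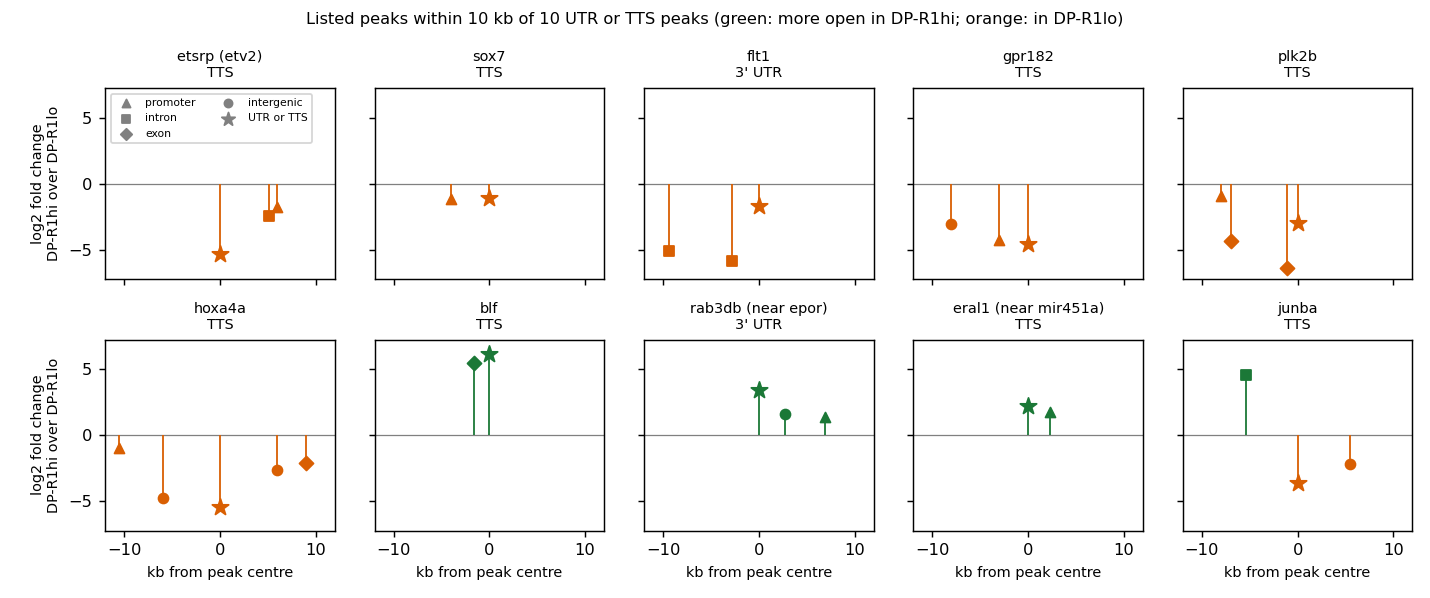
Log2 difference (DP-R1hi over DP-R1lo, vertical) of each listed peak within 10 kb of 10 UTR or TTS peaks, against the distance of peak centres in kb (horizontal), with the member as a star at 0 and other symbols for the class of the neighbours. All neighbours have the direction of the member at 9 of the 10 loci. junba has a neighbour in each direction (−2.18 and 4.51, the latter with DP-R1lo at its lowest value). The 10 loci were picked by hand, so that their count does not describe the members. Of the 51 members with a neighbour within 10 kb, 42 had all neighbours in their own direction.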

How the data were processed

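The authors sorted cells of double-transgenic embryos and profiled them by ATAC-seq. They trimmed reads (Trimmomatic 0.32), aligned them (BWA 0.7.12) to Zv10 (GRCz10), called peaks against genomic DNA, used DiffBind with edgeR after leaving out 1 of 3 libraries each of DP-R1hi and DP-R1lo, annotated peaks with HOMER 3.0, and kept those past an absolute log2 fold change of 0.7. Adjustment of cut positions for Tn5 was not given in the sources used here. The deposited lists have no header; per the methods and the values, the columns used are the authors' mean log2 concentration in each population. Deposited columns with the authors' fold changes and test statistics were not used as results. The difference of the 2 means fitted the fold change column within 0.01. That fit identified the columns as the 2 means, but it cannot tell which mean belongs to which population. With the columns read as they are here, 3864 peaks were more open in DP-R1hi and 5602 in DP-R1lo. These counts lie close to those the paper gives for HE and ARE. Log2 differences were then computed here from the means.

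Members are all peaks whose annotation begins with 5', 3' or TTS. Deposited distances, in bp (unit: other), are from peak centres, as tested on the 2185 genes with several listed peaks. RefSeq identifiers were matched to current symbols (GRCz12tu table, no coordinates taken) for 198 of 203 members. Named genes were, per class and direction, the 3 with the largest difference and the 3 with the highest level, all members of the gene lists, genes with several members, noncoding ends, the 3 widest and those nearest the threshold; others are named as chosen after their values were seen, and 1 peak that the rule names is not reported here. Members and lists were chosen with earlier results of these data known. Shares have 95% Wilson intervals. The neighbour search was tested on simulated peaks. Alternatives covered the fold change threshold, peaks at the lowest value, distance, width, 1 peak per transcript and the neighbour reach. Letters of transcription factor motifs in promoter windows were planned and not run, since no sequence was used here. Per-sample columns do not occur in the tables used. Python 3.11.15, numpy 2.4.6, scipy 1.17.1 and matplotlib 3.10.9 were used.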

Additional observations from a re-analysis of the deposited data

How the results depend on the processing

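Of 165 values recomputed under alternative settings, 140 stayed within the band set for them and 25 moved. All are counts, shares, levels, widths, distances or absolute differences, so that a change of direction could not show. A value within its band may still have shifted. Some alternatives could hardly move a value. Keeping 1 peak per transcript left the number of peaks in each class unchanged. Keeping peaks nearest to their own gene removed no 5' UTR peak, and the limit of 1 kb removed no 3' UTR peak. The number of 5' UTR peaks more open in DP-R1hi was 15 instead of 25 with an absolute log2 difference of at least 1, 7 with at least 2 and 3 more than 1 kb from the TSS. Their number more open in DP-R1lo was 16 instead of 28 with at least 2, 5 beyond 1 kb and 17 without peaks wider than 1 kb. Beyond 1 kb their median absolute differences were 2.97 (DP-R1hi) and 4.03 (DP-R1lo), and 40% of the latter had DP-R1hi at its lowest value. Their median log2 concentration was 6.63 with at least 2 and 6.15 beyond 1 kb, and their median width 684 bp with at least 2. When only peaks nearest to their own gene were kept, 13 3' UTR peaks were more open in DP-R1hi and 15 in DP-R1lo. Without peaks at the lowest value, 15 3' UTR and 31 TTS peaks remained more open in DP-R1lo, with median absolute differences of 3.48 and 2.95. Over both directions, the median log2 concentrations without such peaks were 6.10 (3' UTR) and 6.33 (TTS). With at least 2, TTS peaks more open in DP-R1hi numbered 34, and the median log2 concentration of TTS peaks was 5.58 and the median width 393 bp. Another listed peak lay within 2 kb of 7.39% of members, beside 7% of all listed peaks. Within 50 kb the shares were 62.6% of members and 64.5% of all listed peaks. Restricting 5' UTR peaks to exon 1, an alternative chosen after seeing the data, left the counts at 21 and 23 and the medians at 1.02 and 2.08. The motif search was not run. No paired analysis was possible because each population is given as 1 mean. For the same reason no library could be left out, and the depth that limits weak peaks is unknown.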
